A study of Drosophila melanogaster with 4 samples.

Results

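Chromosome 4 is the small dot chromosome of Drosophila melanogaster, and the regions described here are all H2Av clusters that the authors placed on it. They were taken by the chromosome name in each of 3 lists of enriched regions. There were 119 of 6778 clusters in replicate 1, 103 of 6672 in replicate 2 and 110 of 7576 in the list made from the set of replicates, called the combined list here. All coordinates are on FlyBase release 5, in which chromosome 4 is 1351857 bp long. The study used chromatin immunoprecipitation and sequencing (ChIP-seq) of head nuclei from mixed adult, wild-type Oregon-R flies with the H2AV antibody 9751. It has 2 ChIP replicates and 2 inputs, which the labels pair with them. Flies came from population cages and heads were pooled by sieving, so the values mix brain, eye and all other head tissue of many animals. The labels do not say that the replicates came from separate populations, so their spread may be technical. No file gives the read depth, which is therefore unknown. Sequence outside the clusters was not called, which is not the same as lacking H2Av.

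H2Av is the histone H2A variant that serves in flies as both H2A.Z and H2A.X. It is known at nucleosomes near the starts of transcribed genes, in heterochromatin, where its loss disturbs HP1a, and, once phosphorylated, at DNA breaks. Chromosome 4 is a known exception among autosomes, since repeats and HP1a-bound chromatin are interspersed with active genes, and the protein POF binds those genes along the chromosome. The RefSeq gene table, on release 6, names 114 genes on it, of which 80 are protein-coding. They include ci, the transcription factor of Hedgehog signalling, the Pax6 genes ey and toy of eye development, and the synaptic genes unc-13, Cadps and Syt7. That release differs from the one of the clusters, so no cluster is assigned here to a gene, exon, intron or untranslated region, and gene markers of head tissue were not analysed here.

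Clusters covered 60.4% of chromosome 4 in replicate 1 and 45.4% in replicate 2, a mean of 52.9 ± 10.6% (SD, n = 2). Arms 2L, 3L, 3R and X, pooled as the reference, were at 24.1% and 23.3%, with a mean of 23.7 ± 0.590% (SD, n = 2). The ratio was 2.51 in replicate 1 and 1.95 in replicate 2 (2.23 ± 0.390, SD, n = 2), and chromosome 4 stood above every reference arm in both lists. The difference of 29.2 ± 9.97 percentage points (SD, n = 2) was larger than the spread between replicates. An exact two-sided permutation test over 2 replicates gave p = 0.5, the smallest p this design allows.

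The reference arms were also divided from position 1 into 71 stretches as long as chromosome 4. Their coverage ran from 7.07% to 47.4% in replicate 1 and from 6.63% to 41.9% in replicate 2. In each list 0 of the 71 reached the coverage of chromosome 4. Density of clusters was also higher, at 88.0 and 76.2 clusters per Mb on chromosome 4 against 49.3 and 50.7 per Mb on the reference arms.

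Along the chromosome H2Av was called in alternating richer and poorer stretches. They are read here in 27 windows of 50 kb from the low end, which is the centromere-proximal end of the assembly. Rich blocks are runs of neighbouring windows over 50% covered in both lists, a level that window 2 also reached on its own. In window 1 (1 to 50000), coverage was 49.4% in replicate 1 and 31.6% in replicate 2, and in window 2 (50001 to 100000) it was 75.5% and 72.1%. Window 3 (100001 to 150000) was the poorest in both lists, at 26.1% and 7.07%. A rich block followed from 150001 to 300000. Its 3 windows were covered to 89.8%, 71.7% and 94.4% in replicate 1 and to 83.2%, 53.9% and 70.4% in replicate 2. It also carried the highest mean scores by length of any window in replicate 1, 2.16 in window 4 and 2.11 in window 5. In replicate 2 these windows were at 1.38 and 1.40, and window 22 was the highest at 1.65.

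Coverage then dropped, to 51.6% and 19.6% in window 7 (300001 to 350000) and to 27.3% and 15.0% in window 8 (350001 to 400000). Window 9 (400001 to 450000) was touched by many clusters, 11 in replicate 1 and 13 in replicate 2, most of them narrow and low-scoring. Wider clusters of replicate 1 also reached into it at both ends, from 394705 (13.9 kb, score 1.08) and from 447072 (10.7 kb, score 1.27). Window 26 was likewise touched by 11 clusters of replicate 1. Coverage of window 9 was 65.8% and 49.4%, and its mean scores by length, 0.916 and 0.788, were the lowest of all windows in both lists. The combined list covered 86.7% of this window, far more than either replicate. Window 10 (450001 to 500000) was at 47.1% and 41.6%. Windows 11 and 12 (500001 to 600000) formed a second poor stretch, at 31.1% and 31.6% in replicate 1 and 15.6% and 14.9% in replicate 2.

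A longer rich block lay from 600001 to 800000. Its 4 windows held 78.6%, 64.2%, 83.9% and 98.4% in replicate 1, and 69.8%, 57.9%, 61.2% and 91.2% in replicate 2. The last of them, window 16 (750001 to 800000), was the most covered in both lists, at 94.8 ± 5.11% (SD, n = 2). It was followed at once by window 17 (800001 to 850000), which held 28.0% and 15.7%. Window 18 (850001 to 900000) rose again to 61.7% and 48.2%, and window 19 (900001 to 950000) stood at 35.8% and 28.2%.

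A last rich block ran from 950001 to 1150000. In replicate 1 its 4 windows were covered to 86.6%, 72.7%, 70.5% and 73.3%, and in replicate 2 to 73.7%, 55.3%, 58.2% and 74.0%. Towards the high, telomere-side end coverage was lower and the replicates parted. Windows 24 and 25 (1150001 to 1250000) held 59.3% and 62.8% in replicate 1 and 44.3% and 44.7% in replicate 2. Window 26 (1250001 to 1300000) showed the widest gap, 59.4% against 18.3%, and window 27 (1300001 to 1350000) held 35.5% and 13.6%. The remaining 1857 bp had no cluster in any list.

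**Figure D1:**
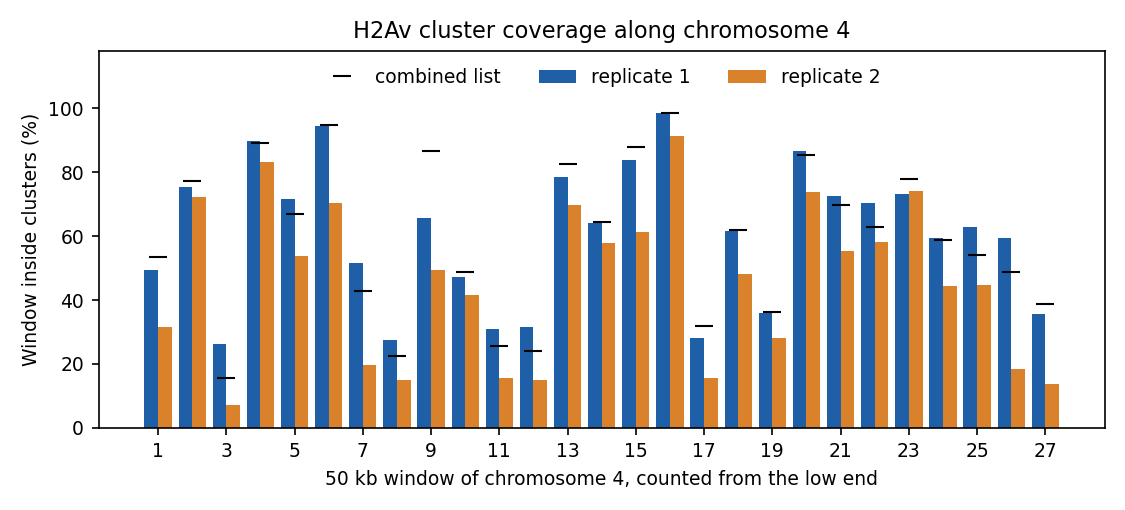
Coverage (percent of each 50 kb window inside clusters, y axis) in the 27 full windows of chromosome 4 counted from the low end (x axis), with bars for replicates 1 and 2 and black marks for the combined list. Rich blocks at windows 4 to 6, 13 to 16 and 20 to 23 are covered over 50% in both replicates, as is window 2. The windows between these blocks are under 50% in replicate 2, though windows 7, 9 and 18 are over 50% in replicate 1. Replicate 2 is lower in 26 of 27 windows.

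Rich and poor windows were largely the same in both lists, though their exact order differed. Over the 27 windows, which share their 2 libraries, the ranks of coverage in the replicates correlated with rho 0.95 (Spearman) and the values with r 0.94 (Pearson), given as a description. Of the 5 most covered windows of each replicate 3 were the same, and of the 5 least covered 4 were the same. Replicate 2 was lower in 26 of 27 windows (96.3%), with a median difference of -15.0 percentage points. The exception was window 23 (1100001 to 1150000), higher by 0.72 points. On X replicate 2 was lower in 271 of 448 windows (60.5%), higher in 81 and equal in 96. On 2L, 3L and 3R it was lower in 33.7% to 39.3%, and 116 to 123 windows were equal. Many windows there had no cluster in either list.

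No full window of chromosome 4 was empty. The least covered held 26.1% in replicate 1 and 7.07% in replicate 2, and the medians were 62.8% and 48.2%. Of 1956 reference windows, 27.2% had no cluster in replicate 1 and 27.5% had none in replicate 2, and the medians were 16.1% and 15.9%. Windows at or above the chromosome 4 median nevertheless occurred on the reference arms, 10.1% of them in replicate 1 and 18.1% in replicate 2. The richest reference window held 97.8% in replicate 1, just below the 98.4% of the richest on chromosome 4, and 99.2% in replicate 2, above the 91.2% there.

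Stretches without a cluster were correspondingly short on chromosome 4. The longest stretch called in neither replicate was 34.0 kb, from 90809 to 124808, followed by 31.4 kb from 517182 to 548547 and 27.1 kb from 1324756 to the end of the chromosome. These 3 were the stretches over 20 kb, and they made up 6.84% of the chromosome. Next came 18.9 kb from 358559 to 377453 and 18.7 kb from 5488 to 24153. The other 5 of the 10 longest began at 563885, 935457, 1260041, 1033412 and 382398 and were 12.3 kb to 13.9 kb long. The 34.0 kb stretch begins in window 2 and ends in window 3, the 31.4 kb stretch lies in window 11, and the 18.9 kb stretch lies in window 8.

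On the reference arms, stretches over 20 kb without a cluster made up 54.1% to 58.3% of each arm, and the longest measured 343 kb on 3R and 607 kb on 2L. Leaving these stretches out on all arms removed most of the contrast in coverage, a comparison chosen after the values had been seen. In the sequence that remained, clusters took up 64.8% and 48.8% of chromosome 4 in replicates 1 and 2, and 53.7% and 51.8% of the reference arms. The ratio was 1.21 and 0.941, with a mean of 1.07 ± 0.188 (SD, n = 2), so its direction differed between the replicates. This step raises coverage wherever long stretches are removed, and 93.2% of chromosome 4 but 44.9% of the reference sequence remained. Whether sequence gaps or repeats lie in the stretches was not examined.

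**Figure D2:**
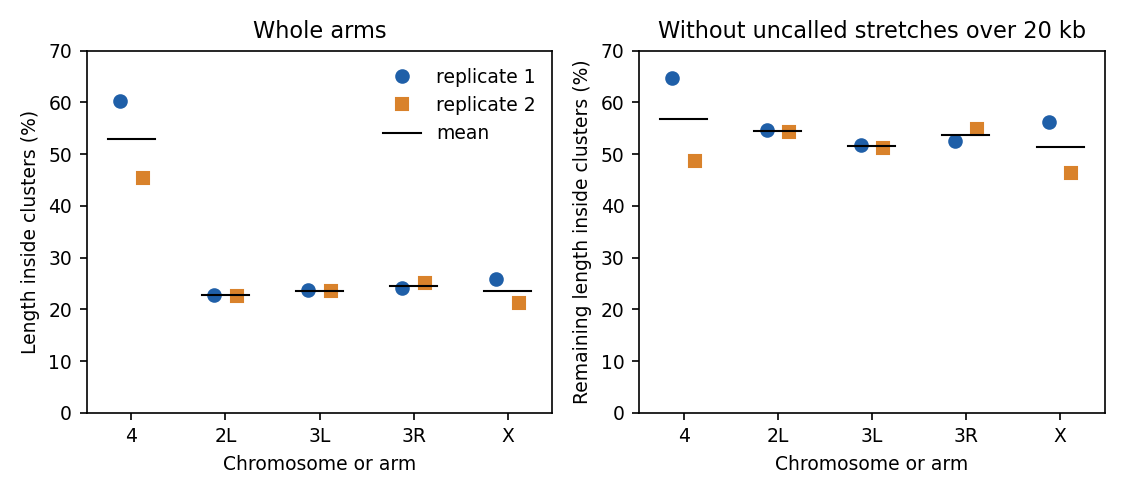
Percent of length inside clusters (y axis) for chromosome 4 and the 4 reference arms (x axis), over whole arms on the left and without stretches over 20 kb that neither replicate called on the right, with points for each replicate and a line at their mean. Chromosome 4 lies at 60.4% and 45.4% on the left, above all reference arms, whereas on the right its 64.8% and 48.8% lie on either side of the values of 2L, 3L and 3R.

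Neighbouring clusters on chromosome 4 were 1980.5 bp apart in replicate 1 and 3905.5 bp apart in replicate 2 by the median gap, with a mean of 2943 ± 1361 bp (SD, n = 2). The reference medians were 3119 and 2989 bp. The chromosome therefore had narrower gaps than the reference in replicate 1 and wider ones in replicate 2. Long gaps were less frequent in both lists, with 12.7% and 21.6% of the gaps over 10 kb against 25.9% and 24.9% on the reference arms. The longest gap of a single list was 34000 bp in replicate 1 and 44851 bp in replicate 2.

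Clusters were wider on chromosome 4 than on the reference arms. The median width was 3714 bp and 4060 bp in replicates 1 and 2, with a mean of 3887 ± 245 bp (SD, n = 2), against 3190 and 3105.5 bp. The difference of 739 ± 304 bp (SD, n = 2) exceeded the spread between replicates, again with an exact p of 0.5. Broad clusters over 10 kb numbered 19 and 14. They held 53.0% and 43.5% of the called length of the chromosome, against 35.7% and 30.7% on the reference arms. Clusters over 20 kb made up 8.40% and 4.85% of those on chromosome 4 and 1.85% and 1.23% of those on the reference arms.

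The 10 widest clusters of replicate 1 were 21.0 kb to 60.8 kb wide, and those of replicate 2 were 13.7 kb to 32.8 kb wide. The widest in replicate 1 ran from 738409 to 799221 (60.8 kb), then from 163711 to 204054 (40.3 kb), from 234589 to 268371 (33.8 kb) and from 1104093 to 1133972 (29.9 kb). In replicate 2 the widest ran from 165091 to 197872 (32.8 kb), then from 767646 to 798538 (30.9 kb), from 239045 to 266438 (27.4 kb) and from 643229 to 669100 (25.9 kb). These wide clusters sat in the rich blocks of the window profile, whose coverage is counted from these same clusters. The others of replicate 1 began at 641306, 62161, 1164277, 948715, 270642 and 1010270. The others of replicate 2 began at 1166692, 950129, 1080087, 1115910, 712354 and 1102179. Those from 62161, 1164277 and 1166692 lay outside the rich blocks. Of the 10 in replicate 1, 7 touched 2 or more clusters of replicate 2, against 17.6% of all 119 on the chromosome. A wide cluster has more room to touch several. Of the 10 in replicate 2, 9 lay to over 95% of their width inside clusters of replicate 1. On the whole chromosome, replicate 1 held 94.3% of the length of replicate 2.

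Scores did not set chromosome 4 apart in one direction. The authors' score of a cluster has no stated scale and is used to describe and rank clusters. Its median on chromosome 4 was 1.13 in replicate 1 and 0.989 in replicate 2. The reference medians were 0.947 and 1.02, so chromosome 4 was higher by 0.18 in replicate 1 and lower by 0.03 in replicate 2. For the median score and the median gap alike the exact two-sided permutation test gave p = 1. By single arm, the median score of chromosome 4 was higher in both lists than on 2L (by 0.25 and 0.02) and 3L (by 0.21 and 0.03). Against 3R the differences were 0.24 in replicate 1 and -0.02 in replicate 2, and against X 0.01 and -0.15. Wide clusters scored higher within each list, with a Spearman rho of 0.68 and 0.65 between width and score over the 119 and 103 clusters. The highest score on the chromosome was 2.46 and 1.99, below the highest on the reference arms, 3.33 and 2.80. Those arms hold far more clusters, 4823 and 4962, from which a highest value is taken. On 3R alone the highest was 2.19 and 2.61.

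The highest-scoring clusters were mostly not the widest. In replicate 1 the cluster from 224662 to 232810 scored 2.46 at 8.15 kb, the one from 1216069 to 1221071 scored 2.41 at 5.00 kb, and the 40.3 kb cluster from 163711 scored 2.22. The other 7 of the 10 highest began at 807305, 626461, 209794, 485839, 1233024, 234589 and 1199508, with scores from 1.91 to 2.06. In replicate 2 the cluster from 86193 to 90785 scored 1.99, the one from 1295304 to 1297153 scored 1.86 at only 1.85 kb, and the one from 198340 to 203618 scored 1.83. The other 7 began at 485927, 1080087, 1045841, 225460, 1215919, 767646 and 147999, with scores from 1.59 to 1.80. All 10 of each list touched a cluster of the other list. On the whole chromosome 70.6% of replicate 1 clusters and 96.1% of replicate 2 clusters did so, and over the whole lists 76.2% and 81.4%. Of the 10 of each list, 4 touched one of the other list's 10 highest.

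The replicates differed on chromosome 4 mainly in that replicate 2 called less of the same places. Of the 103 clusters of replicate 2, 99 shared at least 1 base with replicate 1, or 96.1% (95% exact Clopper-Pearson interval 90.4% to 98.9%), against 81.4% over all clusters of that list. Of the 119 clusters of replicate 1, 84 shared a base with replicate 2, or 70.6% (61.5% to 78.6%), near the 76.2% over the whole list. The intervals cover counting error only, and clusters of a list are not independent. Replicate 1 also covered more of chromosome 4, and the part of this in the shares was not tested.

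By length, 579 kb was called in both lists, which was 94.3% of the length of replicate 2 and 70.9% of that of replicate 1. It made up 68.0% of the length called in either, and the unequal totals of the lists allow at most 75.3%. On the reference arms the share was 68.6% of at most 96.5%. Coverage of chromosome 4 in replicate 2 was 0.753 times that in replicate 1. The same ratio was 0.825 on X, 0.988 on 3L, 0.991 on 2L and 1.05 on 3R.

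Most of what replicate 1 called alone lay at the edges of shared clusters. Of its 237 kb absent from replicate 2, 129 kb (54.4%) extended a shared cluster outward, 25.9 kb (10.9%) filled gaps between replicate 2 clusters, and 82.4 kb (34.7%) were 35 separate clusters. The reference arms gave 46.6%, 12.9% and 40.5%. As a share of all that replicate 1 called, the outer edges took 15.8% on chromosome 4, 12.8% on X and 7.07% to 9.65% on 2L, 3L and 3R. Replicate 2 had 35.3 kb of its own, of which 6.29 kb lay in separate clusters.

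**Figure D3:**
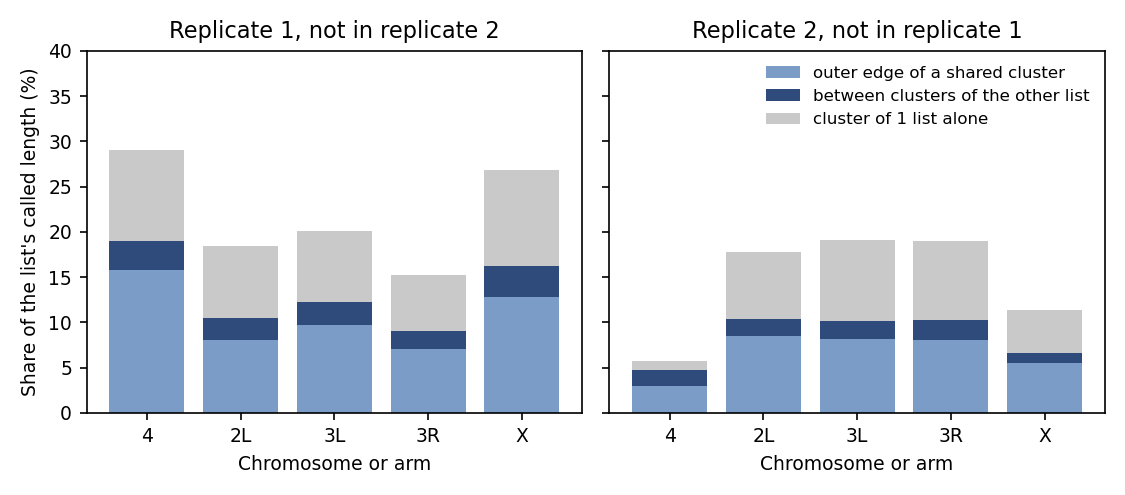
Length called in 1 replicate and not in the other, as a percent of all length called by that replicate on the same arm (y axis), for chromosome 4 and the reference arms (x axis), split into outer edges of shared clusters, gaps of the other list that were bridged, and clusters of 1 list alone. For chromosome 4 the edges reach 15.8% in replicate 1 and 2.95% in replicate 2.

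The 35 separate clusters of replicate 1 were narrow and unevenly spread. Their median width was 2017 bp and their median score 0.927, against 5677 bp and 1.23 for the 84 shared ones. The reference arms showed the same contrast, with 1649 bp and 0.756 against 3888 bp and 1.05. Windows 7 and 26 held 6 each, and windows 11, 12, 17 and 22 held 3 each, while those of the rich blocks from 150001 to 300000 and from 600001 to 800000 held 0. Rich blocks are defined by coverage in both lists, which in itself leaves less room there for clusters of replicate 1 alone. In the rich block from 950001 to 1150000, window 21 held 1 and window 22 held 3, and the less covered windows 1, 10, 19 and 27 held 0. The 4 separate clusters of replicate 2 began at 409694, 423826, 833128 and 1162291 and were 1.38 kb to 2.00 kb wide, and the former pair lies in window 9.

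Pairs in which a single cluster of each list met gave the cleanest view of the edges. There were 41 such pairs on chromosome 4 and 2322 on the reference arms. On chromosome 4 the replicate 2 cluster began a median of 453 bp later and its end was shifted by a median of -580 bp. The shifts were 11 bp and -12 bp on the pooled reference arms, and 143 bp and -142 bp on X. Replicate 1 was the wider in 33 of 41 pairs (80.5%), against 52.2% on the reference arms and 66.0% on X. Of 82 edges, 39.0% lay within 500 bp of each other, against 64.5% on the reference arms and 58.4% on X. The pairs were also wider on chromosome 4, with a replicate 1 median of 5014 bp against 3637.5 bp on the reference arms.

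Scores in these pairs moved the same way. The median was 1.48 in replicate 1 and 1.10 in replicate 2, and replicate 1 scored higher in 30 of 41 pairs (73.2%). On 2L, 3L and 3R it scored higher in 22.2% to 29.0% of pairs and on X in 46.7%. The median difference, replicate 2 minus replicate 1, was -0.25 on chromosome 4 and 0.15 over the reference arms. Whether the scores of the lists share a scale is not known. The rank order within chromosome 4 was partly kept, with a Spearman rho of 0.69 for score and 0.82 for width across the 41 pairs.

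**Figure D4:**
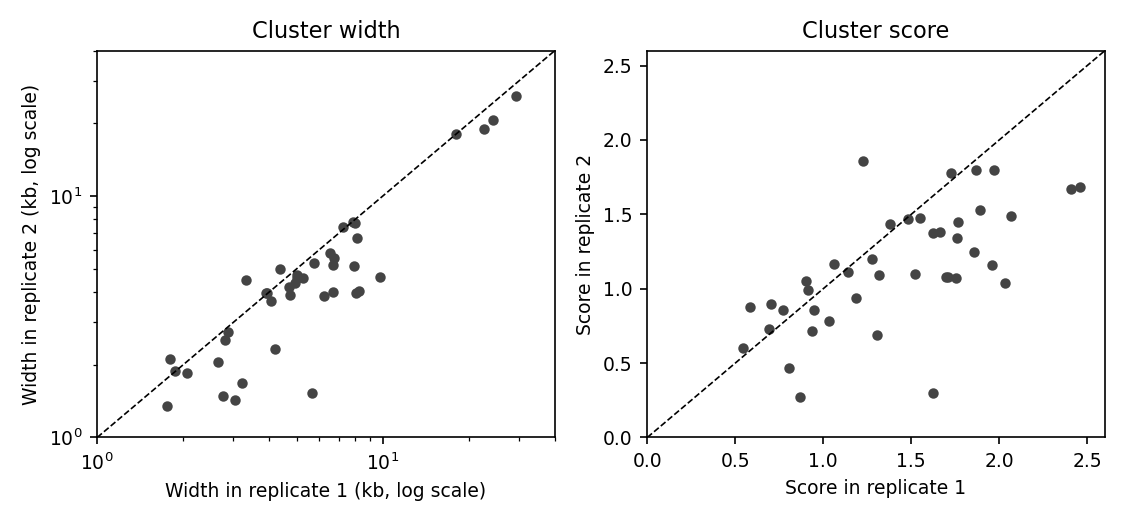
Width in kb on log axes (left) and score (right) of the 41 pairs in which a single cluster of replicate 1 (x axis) met a single cluster of replicate 2 (y axis) on chromosome 4, with dashed lines of equality. Replicate 1 was wider in 33 pairs and scored higher in 30, so most points lie under the lines.

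Joined into domains, that is runs of bases called in either replicate, the clusters of chromosome 4 formed 107 domains. Single pairs made up 41 of them, clusters of replicate 1 alone 35 and clusters of replicate 2 alone 4. In 13 domains a single cluster of replicate 1 met several of replicate 2, called fused in replicate 1 here. Another 7 were fused in replicate 2, and 7 held several clusters of both. Domains fused in replicate 1 made up 12.1% of the domains, against 6.73% on the reference arms and 8.65% on X. Their median length was 14704 bp, against 10429 bp on the reference arms and 12326 bp on X. They held 299 kb, or 35.2% of all domain length, against 15.5% on the reference arms and 23.9% on X. Those fused in replicate 2 held 8.83% of the length, against 9.64% on the reference arms and 5.23% on X.

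Counted by cluster, 21 of the 119 replicate 1 clusters touched 2 or more replicate 2 clusters (17.6%, against 13.4% over that whole list). In the other direction 16 of 103 did (15.5%, against 11.8%). Both shares were close to those of the whole lists. When a touch had to hold 50% of the narrower cluster, 14 replicate 1 clusters and 1 replicate 2 cluster still touched 2 or more. The breaks were short: the 21 gaps of replicate 2 inside domains fused in replicate 1 ran from 18 to 2374 bp, with a median of 700 bp. The 7 gaps in the opposite case ran from 200 to 1955 bp, with a median of 413 bp.

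The 10 longest of the 27 domains with 2 or more clusters of a list are described next, leaving out domains of a single pair. The longest, from 738409 to 799221, was a single 60.8 kb cluster in replicate 1 and 5 clusters in replicate 2, parted by gaps of 211, 1913, 836 and 183 bp. Replicate 2 covered 87.6% of it. The mean scores by length were 1.24 in replicate 1 and 1.29 in replicate 2. The domain from 163711 to 204054 was broken in replicate 2 by 1 gap of 467 bp, and its score was 2.22 in replicate 1 and 1.44 in replicate 2. The domain from 234589 to 268371 had 1 gap of 2374 bp, with scores of 1.93 and 1.27.

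In the domain from 1102179 to 1135160, 3 replicate 2 clusters reached beyond the replicate 1 cluster at both ends, covering 95.4% of the domain against 90.6% for replicate 1. The 28.6 kb domain from 62161 to 90808 was, among these 10, the most fully called in both lists. Its 3 replicate 2 clusters were only 21 and 59 bp apart and covered 98.0% of it. In the domain from 270642 to 291844, 3 replicate 2 clusters covered 66.7% of the length, and the scores were 1.65 and 0.989. The other 4 of these 10 began at 706518, 1008743, 990386 and 615646. Of these, the one from 990386 to 1008711 was fused in replicate 2, across a replicate 1 gap of 413 bp, and the rest held several clusters in both lists.

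The combined list, made by the authors from the same libraries, covered 803 kb of chromosome 4, or 59.4%. Bases of both replicate lists made up 72.0% of this length, and bases in neither list 3.11%, against 8.37% on the reference arms. Replicate 1 alone accounted for 21.5% and replicate 2 alone for 3.42%. Most split domains touched a single combined cluster, though that cluster did not always reach all clusters of the domain. The single pairs in the domains from 38023, 292385, 641306 and 1164277, by contrast, each touched 2 combined clusters. The widest combined cluster was 61.4 kb, from 737850 to 799252, and the median width of the combined list was 4242 bp. Of its 110 clusters 10 touched neither replicate list (9.09%), against 878 of 5488 (16.0%) on the reference arms. The widest of the 10 was 1665 bp wide. Clusters over 5 kb of this kind numbered 0 on chromosome 4 and also 0 on the reference arms.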

How the data were processed

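ChIP-seq of adult fly head nuclei gave 2 ChIP replicates and 2 inputs. Alignment used Bowtie 0.12.7, according to the tools listed per the submitters' processing notes. The authors deposited 3 lists of clusters with a start, an end and 1 score each, with positions on release 5, per the file headers. Not given in the sources used here: the peak caller, its threshold, the scale of the score and how the combined list was made. The labels tie each input to 1 replicate list. Without read counts the depth is unknown.

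Clusters named 4 were taken from each list. Coverage, widths, gaps, windows of 50 kb and overlaps of at least 1 shared base were computed per base with Python 3.11.15, pandas 2.3.3, numpy 2.4.6 and scipy 1.17.1, checked on simulated lists. Reference arms were 2L, 3L, 3R and X, with lengths from the file headers. A few reference clusters run past the stated end of X or 3L and were cut there when coverage was taken. Named regions are all windows, the 10 widest and 10 highest-scoring clusters of each list, the 10 longest fused or split domains, the 10 longest uncalled stretches, and combined clusters over 5 kb outside both replicate lists. The members, lists and measures were chosen with earlier results of these data known. Alternatives covered score, width, joining, overlap rule, reference, windows, the combined list and each replicate alone.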

Additional observations from a re-analysis of the deposited data

How the results depend on the processing

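Of 82 alternative values, 48 stayed within the spread or limit set for them, 33 moved and 1 reversed. For a measure averaged over 2 replicates, either replicate alone lies within 1 SD of the mean by construction. Such values could not count as moved, so their place among the 48 says nothing on stability. The ratio of chromosome 4 to reference coverage stayed above 1 in every alternative run, from 1.95 without replicate 1 to 2.51 without replicate 2. These ends are single replicates, whereas most other runs are means of both, whose replicates can lie further apart. In the upper 50% by score the mean ratio was 2.34 ± 0.786 (SD, n = 2). Outside uncalled stretches over 20 kb, a result and alternatives chosen after seeing the data, the ratio of 1.07 was 0.941 without replicate 1, 1.21 without replicate 2 and 1.31 when only stretches over 50 kb were left out. In the upper 50% of each list by score, coverage was 40.2%, density 43.3 clusters per Mb, median width 5787 bp, median score 1.41, median gap 8441 bp and the share of length in clusters over 10 kb 59.5%. There the ratio of replicate 2 to replicate 1 coverage was 0.611, the share of length in both lists 57.6%, the share of replicate 1 clusters touching replicate 2 61.4%, and the window rho 0.79. The clusters touching 2 or more of the other list numbered 4 and 2, and the longest uncalled stretch was 48608 bp. With clusters joined over gaps of at most 1000 bp, density was 58.1 per Mb, median width 5448 bp, median gap 5859.5 bp, the share over 10 kb 66.3%, and replicate 2 clusters touching 2 or more numbered 5. Without clusters under 2000 bp, density was 64.0 per Mb, median width 5010 bp, median gap 5046 bp, that number 9 and the longest stretch 43447 bp. In the combined list the median width was 4242 bp, the median score 0.785, the share over 10 kb 62.8% and the longest stretch 40781 bp. Requiring 50% of the narrower cluster gave touching shares of 58.0% for replicate 1 and 88.3% for replicate 2, and 1 replicate 2 cluster touching 2 or more, against 16 with 1 shared base. Windows of 50 kb that start 25 kb later gave a rho of 0.81. Filters and joins change widths, gaps and numbers by construction; for the other shifts the cause was not tested. Without each replicate in turn, coverage lay between 45.4% and 60.4%, density between 76.2 and 88.0 per Mb, median width between 3714 and 4060 bp, median score between 0.989 and 1.13, median gap between 1980.5 and 3905.5 bp, the share over 10 kb between 43.5% and 53.0%, and the longest stretch between 34000 and 44851 bp. Measures of overlap need both lists and have no such values. No paired analysis was possible because the groups that share replicate numbers are ChIP and input, and no list gives values for an input. Chromosome 4 and the reference arms were compared within each list throughout. Depth is unknown, so its part in the lower coverage of replicate 2 cannot be read from these lists.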
